A study of Gallus gallus with 4 samples.

Results

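The ADIPOQ-expressing cells of the chicken lung at embryonic day 20 (E20) were 149 of 2744 kept cell barcodes in a library depleted of CD45-positive immune cells, and 133 of 5421 kept barcodes in a library labelled as epithelial cells. ADIPOQ (ENSGALG00000005554, first annotated start at position 5403001 of chromosome 9 in galGal6) encodes adiponectin. The cells were chosen by their own counts of unique molecular identifiers (UMIs, each standing for 1 captured RNA molecule). A barcode belonged to the group if it had at least 2 ADIPOQ UMIs, no EPCAM or KDR UMI, at most 2 MYH11 UMIs and under 10% of its UMIs from the haemoglobin genes HBBA, HBA1 and HBAD. It also needed at least 500 detected genes and at most 20% mitochondrial UMIs. The group held 5.43% of kept barcodes in the CD45-negative library (exact binomial 95% interval 4.61 to 6.34%) and 2.45% in the epithelial library (2.06 to 2.90%), 282 of 8165 kept barcodes in all.

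The comparison group was all other kept barcodes with at least 5 UMIs of MGP or COL1A2 and no EPCAM or KDR UMI. It numbered 709 barcodes in the CD45-negative library and 654 in the epithelial library. Both E20 libraries came from wild-type chicken lungs that were dissociated and sorted by flow cytometry. The CD45-negative library was labelled as total RNA from all lung cells apart from immune cells, and the epithelial library as nuclear RNA. Each was a single library, and the number of embryos is not given in the sources used here. The series also holds nuclei of embryonic day 13 (E13), used here for ADIPOQ only.

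Adiponectin is best known as a hormone that fat cells secrete into blood. It is built like complement C1q, with a collagen-like stem and a globular head, and it binds the receptors ADIPOR1 and ADIPOR2 and the surface cadherin CDH13. The connective tissue around the airways and air capillaries of a bird lung holds fibroblasts, smooth muscle and cells wrapped around small vessels, and the fine vessels rest on basement membranes of type IV collagen and laminin.

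The libraries held 13997201 UMIs over 4567 barcodes (CD45-negative) and 31800493 UMIs over 8341 barcodes (epithelial). They shared 5 kept barcodes and no ADIPOQ-expressing cell. The epithelial library was not purely epithelial by its counts, since 52.2% of its kept barcodes had no EPCAM and no KDR UMI. The median ADIPOQ-expressing cell had 3875 UMIs against 4236 in the other MGP or COL1A2 barcodes of the CD45-negative library, and 4152 against 4761 in the epithelial library. Its median mitochondrial share was 8.13% against 3.80% in the CD45-negative library, and 12.8% against 6.02% in the epithelial library. The part of mitochondrial share and depth in the differences given here was not tested. Levels are in CPM: for each group, a gene's summed UMIs were scaled to a total of 1000000. Their 95% intervals, exact Poisson for levels and exact conditional for ratios, cover counting error only. With 1 library per group no difference between groups could be tested, and the second library repeats the same rule on another sort.

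MGP, taken with ADIPOQ as a marker of these cells when they were first labelled mesenchymal, was low in them. MGP (matrix Gla protein, an inhibitor of calcification) was at 1122 CPM in ADIPOQ-expressing cells and 33092 CPM in the other barcodes of the CD45-negative library. It was at 716 CPM in the epithelial library's ADIPOQ-expressing cells and 30180 CPM in its others. The other barcodes were chosen on MGP or COL1A2, so this gap is partly set by the choice of groups. Within the ADIPOQ-expressing cells alone, 68 of 149 and 56 of 133 had no MGP UMI at all. The median cell had 1 MGP UMI in either library, and only 12 of 149 and 13 of 133 reached 5 UMIs of MGP or COL1A2. In the CD45-negative library 1 of these cells alone held 357 MGP UMIs. With only the cells of the main clusters described further on, MGP was at 328 CPM (CD45-negative) and 589 CPM (epithelial). Clusters of 344 (CD45-negative) and 701 (epithelial) barcodes, with KDR at 306 and 269 CPM, each had MGP at 247 CPM. The part of RNA from other cells in the MGP levels was not tested. The cells are therefore called here by the gene that chose them.

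ADIPOQ counts per cell ran from 2 to 23 UMIs with a median of 7 in the CD45-negative library, and from 2 to 24 with a median of 6 in the epithelial library. The summed level, which the rule itself fixed, was 2006 CPM in ADIPOQ-expressing cells (1893 to 2125) and 67.9 CPM in the other barcodes of the CD45-negative library. It was 1622 CPM in ADIPOQ-expressing cells (1518 to 1731) and 38.7 CPM in the others of the epithelial library. ADIPOQ was low outside these cells and the MYH11-positive cells described further on. It had no UMI in the 65 barcodes with at least 2 EPCAM UMIs of the CD45-negative library and was at 3.42 CPM in the 1572 such barcodes of the epithelial library. In barcodes with at least 2 KDR UMIs, the endothelial marker, it was at 43.7 CPM (CD45-negative) and 33.0 CPM (epithelial).

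Of all kept barcodes, 271 in the CD45-negative library and 260 in the epithelial library had at least 2 ADIPOQ UMIs. An EPCAM or KDR UMI set aside 6 and 46 of them, then the MYH11 limit 111 and 80, and then the haemoglobin limit 5 and 1, the CD45-negative library's count given before the epithelial library's. Of the other MGP or COL1A2 barcodes, 28 of 709 and 14 of 654 had at least 2 ADIPOQ UMIs and 647 and 613 had none.

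The threshold of 2 UMIs fell on a steep part of the data. With the rest of the rule unchanged, the 36 barcodes with 1 ADIPOQ UMI in the CD45-negative library had POSTN at 2151 CPM and MGP at 26149 CPM. The 12 barcodes with exactly 2 had POSTN at 4459 and MGP at 10174 CPM, and 1 of the 12 held 357 of their 470 MGP UMIs. The 33 barcodes with 3 to 5 had POSTN at 12465 and MGP at 762 CPM, and the 35 with over 10 had POSTN at 10941 and MGP at 222 CPM. In the CD45-negative library POSTN was highest at 3 to 5 UMIs, and the barcodes with 6 to 10 had 11581 CPM. Barcodes of the epithelial library with 1, 2, 3 to 5, 6 to 10 and over 10 ADIPOQ UMIs had POSTN at 932, 6551, 7792, 9800 and 9028 CPM, highest at 6 to 10, and MGP at 12516, 1797, 1245, 193 and 170 CPM. In both libraries the barcodes with 2 UMIs had POSTN and MGP levels between those of the barcodes with 1 and with 3 to 5.

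**Figure D1:**
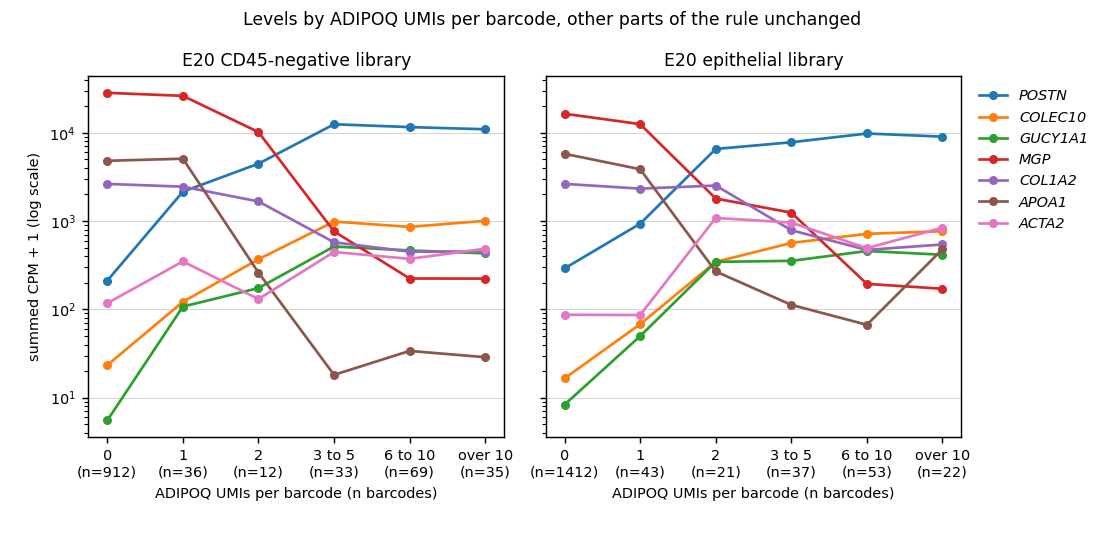
Summed CPM plus 1 (log axis) of 7 genes against the ADIPOQ UMIs of a barcode, among barcodes that met every other part of the rule, in the CD45-negative library (left) and the epithelial library (right), with the number of barcodes under each step. POSTN, COLEC10 and GUCY1A1 lie higher and MGP and COL1A2 lower at 3 or more ADIPOQ UMIs than at 0 or 1, and the barcodes with 2 lie between for POSTN and MGP.

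The genes that set ADIPOQ-expressing cells apart were measured as the log2 ratio of CPM over the other barcodes, with 1 CPM added and the median over all tested genes subtracted. Tested genes had at least 50 CPM in the higher group, and the genes of the rule were left out. A gene that reached the minimum through 1 group only had to be higher there, so the counts over gene lists that follow are descriptions. In the CD45-negative library 380 of 3511 genes were at least 2-fold higher in ADIPOQ-expressing cells (10.8%) and 520 were at least 2-fold lower (14.8%), 25.6% in either direction. Of 3287 genes tested in the epithelial library 410 were higher (12.5%) and 506 lower (15.4%), 27.9% in either direction. Of the genes called in the CD45-negative library, 75.8% of the higher and 71.2% of the lower were called the same way in the epithelial library. Those 288 higher and 370 lower genes made up 70.2% and 73.1% of the calls in the epithelial library. No gene was called in opposite directions. Across the 3042 genes tested in both, Pearson's r between the ratios of both libraries was 0.923, a description across genes, which are not independent replicates.

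Secreted proteins led the abundant transcripts. COL4A1, a chain of basement membrane collagen, carried the most UMIs of the tested genes in ADIPOQ-expressing cells of both libraries. It was at 14936 CPM in ADIPOQ-expressing cells and 3579 CPM in the other barcodes (CD45-negative), and at 12254 and 3054 CPM (epithelial). IGFBP7, a secreted binding protein of insulin-like growth factors, was at 13169 and 1035 CPM (CD45-negative) and at 9946 and 867 CPM (epithelial), in ADIPOQ-expressing cells and the others. POSTN (ENSGALG00000017046, periostin, a matricellular protein) was at 11034 CPM in ADIPOQ-expressing cells (10765.5 to 11307) and 442 CPM in the others, a relative log2 ratio of 4.58. POSTN was at 8639 CPM in ADIPOQ-expressing cells (8398 to 8886) and 582 CPM in the others of the epithelial library, a ratio of 3.78.

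POSTN was found in nearly all of the cells. It ran from 0 to 108 UMIs per ADIPOQ-expressing cell with a median of 41 in the CD45-negative library, and from 0 to 144 with a median of 33 in the epithelial library. In the other barcodes the median was 0 in either library. With each barcode thinned to 1000 UMIs, 95.3% of ADIPOQ-expressing cells and 9.77% of the others had a POSTN UMI in the CD45-negative library. The shares were 93.2% and 23.1% in the epithelial library. Barcodes that should lack the gene gave 0 of 65 (EPCAM, which allows up to 4.62%) and 1.98% (KDR) in the CD45-negative library at median depths of 8164 and 3474 UMIs, and 1.97% of the EPCAM barcodes in the epithelial library at 7145 UMIs. Thinning left out 1 ADIPOQ-expressing cell in each library. Without thinning, 97.3% of ADIPOQ-expressing cells and 20.7% of the others (CD45-negative), and 97.7% and 37.8% (epithelial), had a POSTN UMI.

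The 15 highest genes by ratio in the CD45-negative library were each at least 2-fold higher in the epithelial library too, where P2RX1 and INKA2 lay under the minimum of 50 CPM. CD28, known in T cells as a receptor for co-stimulation, led with 54 UMIs, 92.9 CPM in ADIPOQ-expressing cells and 0.64 CPM in the others. CD28 was at 55.2 CPM in ADIPOQ-expressing cells and 0.62 CPM in the others of the epithelial library. The 10 listed immune genes in the table summed to 27.5 CPM in ADIPOQ-expressing cells and 21.2 CPM in the others (CD45-negative), with CD3E and SPI1 at 0 in ADIPOQ-expressing cells. The same sum was 83.7 CPM in ADIPOQ-expressing cells and 247 CPM in the others of the epithelial library. RHOBTB1 was at 119 CPM in ADIPOQ-expressing cells against 1.29 CPM (CD45-negative) and at 94.4 against 1.55 CPM (epithelial).

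SELENOP2, a selenoprotein, was at 401 CPM in ADIPOQ-expressing cells and 7.08 CPM in the others (CD45-negative), and at 324 and 4.34 CPM (epithelial). NME4, a nucleoside diphosphate kinase of mitochondria, had relative log2 ratios of 5.28 and 4.82 in the 2 libraries. ALKAL2, a ligand of the receptor tyrosine kinase ALK, was at 237 CPM against 6.43 CPM (CD45-negative) and at 228 against 3.10 CPM (epithelial). GEM, a small GTPase, had the smallest ratio of the 15 in the epithelial library, at 2.91, with 4.68 in the CD45-negative library. SPERT, GRAPL, SYBU, RCSD1, INKA2 and PPP1R17 had ratios between 4.43 and 5.14 in the CD45-negative library and between 3.99 and 5.30 in the epithelial library. The 15 also held POSTN, given above, and P2RX1 and GUCY1A2, given with the vasoactive genes. All 15 had smaller ratios over the smooth muscle gate, barcodes with at least 3 MYH11 UMIs described further on. Most barcodes of that gate also had at least 2 ADIPOQ UMIs. Relative log2 ratios over it ran from 0.82 (RCSD1) to 1.92 (SYBU) in the CD45-negative library. In the epithelial library they ran from -0.36 (INKA2) to 1.70 (ALKAL2).

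**Figure D2:**
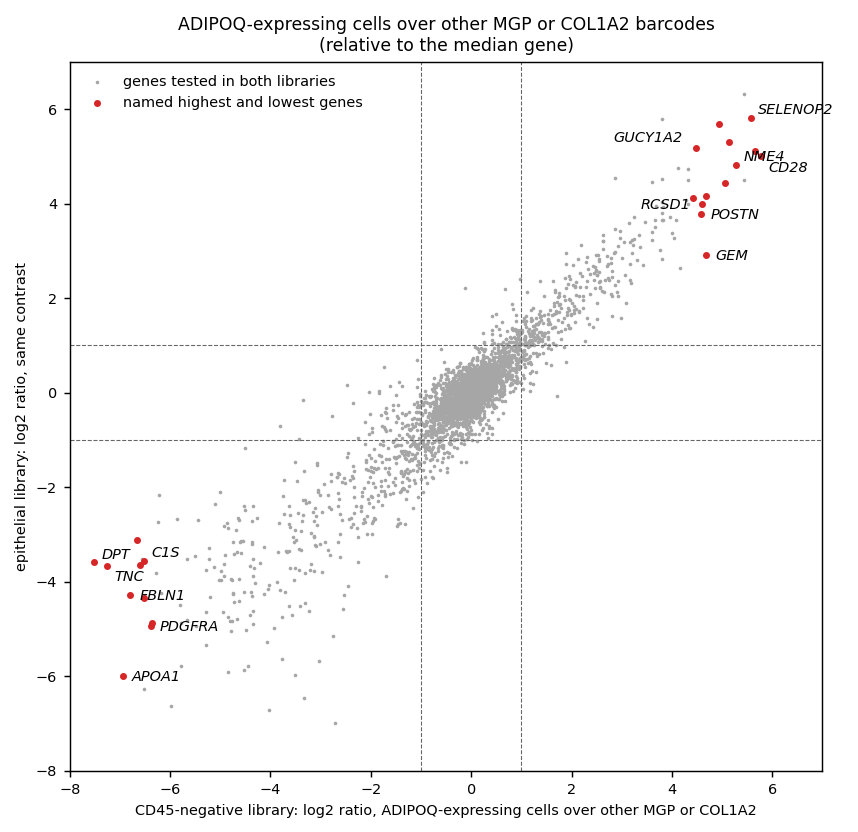
Relative log2 ratio of ADIPOQ-expressing cells over the other MGP or COL1A2 barcodes, 1 point per gene tested in both libraries, CD45-negative library on the horizontal axis and epithelial library on the vertical axis, with the 15 highest and 10 lowest genes in red and dashed lines at 2-fold. The red points lie in the same direction in both libraries, and the 10 lowest genes lie nearer to 0 in the epithelial library. P2RX1 and INKA2 are not drawn, being under the minimum of 50 CPM there.

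The 10 lowest genes by ratio included several secreted matrix proteins. DPT, dermatopontin of the collagen matrix, had no UMI in ADIPOQ-expressing cells and 174 CPM in the other barcodes of the CD45-negative library, at least 33.7-fold lower against a floor of 3 UMIs over the group. DPT was at 16.0 CPM in ADIPOQ-expressing cells and 189 CPM in the others of the epithelial library. APOA1, the main protein of high-density lipoprotein, was at 46.5 CPM in ADIPOQ-expressing cells and 5583 CPM in the others (CD45-negative), and at 176 and 10441 CPM (epithelial). With only the cells of the main clusters described further on, APOA1 was at 29.2 CPM (CD45-negative) and 68.5 CPM (epithelial). TNC, tenascin C, was at 3.44 CPM against 648 CPM (CD45-negative) and at 41.0 against 495 CPM (epithelial). FBLN1, fibulin-1 of elastic matrix, was at 1.72 CPM against 288 CPM and at 14.2 against 273 CPM in the same order of libraries.

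PDGFRA, the receptor that marks many fibroblasts, had no UMI in 149 ADIPOQ-expressing cells and 79.1 CPM in the others of the CD45-negative library, at least 15.3-fold lower. It had 1 UMI (1.78 CPM) in ADIPOQ-expressing cells and 78.0 CPM in the others of the epithelial library. C1S, a protease of the complement cascade, and S100A4 and the amino acid transporter SLC43A2 likewise had no UMI in ADIPOQ-expressing cells of the CD45-negative library. They were at 87.2, 92.6 and 95.8 CPM in the others there. OC3, whose annotated start on chromosome 1 (48037612) lies close to that of MGP (48028649), had 1 UMI in ADIPOQ-expressing cells (1.72 CPM) and 240 CPM in the others, and 8.90 and 186 CPM in the epithelial library. GAS6, a ligand of TAM receptor kinases, was at 6.88 CPM against 622 CPM (CD45-negative) and 14.2 against 412 CPM (epithelial).

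Apart from ADIPOQ itself and LPL, the adipocyte genes gave no call of at least 2-fold in either library. Of 18 listed genes 16 were in the table, 2 were tested in the CD45-negative library and 1 in the epithelial library. The 16 genes, LPL among them, summed to 244 CPM in ADIPOQ-expressing cells and 204 CPM in the others (CD45-negative), and to 287 and 207 CPM (epithelial). PPARG, the nuclear receptor that drives fat cell formation, had 8 UMIs (13.8 CPM) in ADIPOQ-expressing cells of the CD45-negative library and 3 UMIs (5.34 CPM) in those of the epithelial library. All 2744 kept barcodes of the CD45-negative library together held 39 PPARG UMIs (3.25 CPM). FABP4, PLIN1, CIDEC and SCD had no UMI in ADIPOQ-expressing cells of either library. FABP4 had only 8 UMIs in all kept barcodes of the CD45-negative library, so its absence there says little. LPL, lipoprotein lipase, was at 122 CPM in ADIPOQ-expressing cells and 55.0 CPM in the others (CD45-negative, relative log2 ratio 1.08) and at 135 and 86.1 CPM (epithelial, 0.54). In the KDR barcodes it was at 343 CPM (CD45-negative) and 322 CPM (epithelial). FASN, fatty acid synthase, was at 44.7 CPM in ADIPOQ-expressing cells and 50.2 CPM in the others of the CD45-negative library.

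Of the lipid synthesis list, 1 of 4 tested genes in the CD45-negative library and 1 of 2 in the epithelial library was at least 2-fold higher and none lower. That gene was ELOVL5, which lengthens polyunsaturated fatty acids, at 191 CPM in ADIPOQ-expressing cells against 47.6 CPM (CD45-negative) and 235 against 43.7 CPM (epithelial). Among the 7 tested genes of the lipofibroblast list, fibroblasts that store lipid in mammalian lungs, 3 were lower in each library. They were FGF10, PDGFRA and TCF21. The 1 higher gene was LPL in the CD45-negative library and ZEB1 (ratio 1.07) in the epithelial library.

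The adiponectin receptors ADIPOR1 and ADIPOR2 lay within 2-fold between the groups. ADIPOR1 was at 55.1 CPM in ADIPOQ-expressing cells and 46.3 CPM in the others (CD45-negative), and at 57.0 and 43.1 CPM (epithelial). ADIPOR2 was at 31.0 CPM in ADIPOQ-expressing cells and 28.0 CPM in the others of the CD45-negative library, and at 30.3 and 30.7 CPM in the epithelial library. CDH13, which binds the large forms of adiponectin in mammals, was at 1.72 CPM in ADIPOQ-expressing cells against 97.1 CPM (CD45-negative) and 7.12 against 73.1 CPM (epithelial). APPL1, an adaptor of the receptors, was at 25.8 CPM against 24.8 CPM in the CD45-negative library and 24.9 against 24.5 CPM in the epithelial library.

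Relatives of adiponectin with the C1q head went both ways. C1QTNF5 was at 642 CPM in ADIPOQ-expressing cells and 44.4 CPM in the others (CD45-negative), and at 467 and 52.7 CPM (epithelial). C1QTNF6 was at 330 and 36.3 CPM in the CD45-negative library and at 249 and 61.3 CPM in the epithelial library. C1QTNF2 and the collagen COL8A1 were at least 2-fold lower in each library, with COL8A1 at 8.60 CPM in ADIPOQ-expressing cells against 209 CPM (CD45-negative) and 130 against 271 CPM (epithelial). Against the smooth muscle gate 2 of 4 tested genes of this list were higher and 2 lower (CD45-negative). None of 4 was higher and 2 were lower against that gate in the epithelial library.

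Basement membrane genes differed by chain. This list, like those of the vasoactive genes, the adhesion genes and the thrombocyte genes that follow, was chosen after values had been seen, so its counts are a description. Of 10 tested genes 5 were at least 2-fold higher and 2 lower in each library. A second comparison used barcodes with at least 3 MYH11 UMIs, the smooth muscle gate described further on with its shares over all tested genes. Against that gate 2 of 10 were higher and 2 lower (CD45-negative), and none of 10 was higher and 2 were lower (epithelial). COL4A2, the partner chain of COL4A1, was at 974 CPM in ADIPOQ-expressing cells and 277 CPM in the others (CD45-negative), and at 931 and 210 CPM (epithelial). The laminin beta 2 chain LAMB2 was at 2614 CPM against 362 CPM (CD45-negative) and 2208 against 304 CPM (epithelial), while the beta 1 chain LAMB1 was at 96.4 against 823 CPM and at 109 against 835 CPM. LAMA5 and the proteoglycan AGRN were higher, with ratios of 2.93 and 2.96 (CD45-negative) and 2.36 and 3.28 (epithelial). HSPG2, perlecan, was lower, at -2.40 and -2.64 in the CD45-negative and epithelial libraries. LAMA4, LAMC1 and NID1 lay within 2-fold in both.

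Interstitial matrix was lower almost throughout, in a comparison group that was itself chosen on MGP or COL1A2. Of 12 tested collagen genes 10 were at least 2-fold lower in each library, all but COL4A1 and COL4A2, where 14.8% (CD45-negative) and 15.4% (epithelial) of all tested genes were lower. Against the smooth muscle gate 6 of 12 (CD45-negative) and 7 of 12 (epithelial) were lower and none higher. Of all genes tested against that gate, 8.74% and 7.12% were lower. COL3A1 was at 563 CPM in ADIPOQ-expressing cells and 12433 CPM in the others (CD45-negative), and at 1214 and 21089 CPM (epithelial). It had a UMI in 15.5% of ADIPOQ-expressing cells and 93.6% of the others at 1000 UMIs each (CD45-negative), and in 26.5% and 95.3% (epithelial). The EPCAM and KDR barcodes, which should lack it, gave 3.08% and 5.45% in the CD45-negative library, and the EPCAM barcodes 12.5% in the epithelial library. COL1A1 had a median of 5 UMIs per ADIPOQ-expressing cell against 14 per other barcode in the CD45-negative library, and 6 against 40.5 in the epithelial library. It was at 1702 CPM in ADIPOQ-expressing cells against 9795 CPM (CD45-negative) and 3401 against 20432 CPM (epithelial). Of the 1910 COL1A1 UMIs behind the 3401 CPM, 1 cell held 704, and the cells of the main cluster described further on were at 1698 CPM.

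Of the elastic fibre genes 11 of 12 tested were lower in the CD45-negative library and 13 of 13 in the epithelial library. Against the smooth muscle gate 8 of 11 (CD45-negative) and 9 of 10 (epithelial) were lower. Elastin itself, ELN, was at 56.8 CPM in ADIPOQ-expressing cells and 1751 CPM in the others (CD45-negative), and at 94.4 and 1211 CPM (epithelial). Of the small proteoglycans and matricellular proteins 8 of 10 were lower in the CD45-negative library and 9 of 11 in the epithelial library. Against the smooth muscle gate 8 of 11 (CD45-negative) and 9 of 12 (epithelial) of them were lower. SPARC, which binds collagen, lay within 2-fold in both libraries, at 5698 CPM in ADIPOQ-expressing cells and 5631 CPM in the others (CD45-negative) and at 5659 and 7207 CPM (epithelial). POSTN, also matricellular and higher in ADIPOQ-expressing cells, was counted in the fibroblast list instead. The chemokine and complement list, which also held the serpin SERPINF1, had 9 genes in the table, and the 6 tested were lower in each library. All 6 were past the minimum in the others, and only CFD (CD45-negative) or CFD and SERPINF1 (epithelial) in ADIPOQ-expressing cells. Among them, CXCL12 was at 25.8 CPM against 360 CPM (CD45-negative) and 26.7 against 466 CPM (epithelial).

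Of 23 genes of cyclic GMP and vasoactive signalling in the table, 13 reached the minimum of 50 CPM in the CD45-negative library and 12 in the epithelial library, and those were higher in ADIPOQ-expressing cells. Most reached it through the ADIPOQ-expressing cells alone, the others having 50 CPM only for GUCY1B1 and EDNRA (CD45-negative) and EDNRA (epithelial), so these counts support nothing. The genes under the minimum included EDNRB, ADRA2A and PDE1A. Against the smooth muscle gate 4 of 14 tested genes were higher and 1 lower (CD45-negative), and 1 of 12 was higher and 1 lower (epithelial). Soluble guanylate cyclase, which makes cyclic GMP on binding nitric oxide, was present by its 3 listed subunits. GUCY1A2 was at 561 CPM in ADIPOQ-expressing cells and 23.2 CPM in the others (CD45-negative), and at 440 and 10.2 CPM (epithelial). GUCY1A1 was at 442 against 32.2 CPM (CD45-negative) and 404 against 23.2 CPM (epithelial). It had a UMI in 105 of 149 ADIPOQ-expressing cells and 99 of 185 barcodes of the smooth muscle gate (CD45-negative). The same counts were 95 of 133 and 79 of 121 in the epithelial library. GUCY1B1 was at 508 against 67.2 CPM (CD45-negative) and 408 against 47.7 CPM (epithelial). PDE5A, the enzyme that breaks cyclic GMP down, was at 119 against 19.0 CPM (CD45-negative) and 103 against 11.8 CPM (epithelial).

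Receptors and channels of contractile cells followed. EDNRA, the endothelin receptor A, was at 609 CPM in ADIPOQ-expressing cells and 94.6 CPM in the others (CD45-negative), and at 410 and 84.2 CPM (epithelial). The adrenergic receptor ADRA2B was at 489 against 26.7 CPM and at 452 against 32.5 CPM in the same order of libraries. The cation channel TRPC6 was at 458 against 24.4 CPM (CD45-negative) and 315 against 9.91 CPM (epithelial). The ATP-gated channel P2RX1 was at 80.9 against 1.93 CPM (CD45-negative) and 39.2 against 0.93 CPM (epithelial). AGTR1, the angiotensin receptor, had no UMI in ADIPOQ-expressing cells of either library and 4.18 and 5.57 CPM in the others.

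Of the connexin and adhesion genes 6 of 8 tested were higher and 2 lower in the CD45-negative library, and 7 of 9 higher and 2 lower in the epithelial library. Against the smooth muscle gate 2 of 8 were higher and 2 lower (CD45-negative), and 1 of 9 was higher and 2 were lower (epithelial). The levels that follow are set against the other MGP or COL1A2 barcodes. CDH2, N-cadherin, was at 200 CPM in ADIPOQ-expressing cells and 12.9 CPM in the others (CD45-negative), and at 185 and 11.5 CPM (epithelial). CDH11, the cadherin of fibroblasts, was at 25.8 against 766 CPM (CD45-negative) and 71.2 against 720 CPM (epithelial). The adhesion molecule MCAM was at 1698 against 129 CPM (CD45-negative) and 1553 against 114 CPM (epithelial), and in the KDR barcodes it was at 1438 and 1461 CPM. The connexins GJA4 and GJA5 were higher, with GJA4 at 193 against 12.2 CPM (CD45-negative) and 176 against 12.1 CPM (epithelial).

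The pericyte list, genes of cells that wrap capillaries in mammals, gave 3 of 4 tested genes higher in the CD45-negative library and 4 of 5 in the epithelial library. Against the smooth muscle gate 1 of 5 tested genes was higher and 1 lower in the CD45-negative library. None of 5 was higher there and 1 was lower in the epithelial library. PDGFRB, the receptor for PDGF-B, was at 74.0 CPM in ADIPOQ-expressing cells and 13.5 CPM in the others (CD45-negative), and at 67.7 and 7.74 CPM (epithelial). It had a UMI in 36 of 149 ADIPOQ-expressing cells in the CD45-negative library and 32 of 133 in the epithelial library. The same counts were 33 of 185 and 22 of 121 in the smooth muscle gate, and 37 of 709 and 25 of 654 in the others. The potassium channel gene KCNJ8 was at 243 against 54.7 CPM (CD45-negative) and 205 against 66.9 CPM (epithelial). EBF1, a transcription factor, was at 98.1 against 18.7 CPM and at 74.8 against 31.9 CPM. ANGPT1, a ligand of the endothelial receptor TEK, was lower, at 80.9 against 246 CPM (CD45-negative) and 48.1 against 102 CPM (epithelial), while its relative ANGPT2 was higher, at 253 against 62.7 CPM and 223 against 58.8 CPM.

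RGS5, a common pericyte marker, differed between the libraries. It had 5 UMIs (8.60 CPM) in ADIPOQ-expressing cells of the CD45-negative library and 23.2 CPM in the others, and 38 UMIs (67.7 CPM) in ADIPOQ-expressing cells of the epithelial library and 20.4 CPM in the others. The related RGS4 was at 98.1 against 5.79 CPM (CD45-negative) and 114 against 0.93 CPM (epithelial). With only 9 of 13 pericyte genes in the table and 4 or 5 tested, no cell type name is given.

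Among transcription factors 4 of 12 tested were higher and 5 lower in each library. Against the smooth muscle gate 1 of 11 was higher and 3 were lower (CD45-negative), and 1 of 10 was higher and 2 were lower (epithelial). TBX2 was at 169 CPM in ADIPOQ-expressing cells and 55.6 CPM in the others (CD45-negative), and at 135 and 45.5 CPM (epithelial). ZEB2 was at 521 against 188 CPM (CD45-negative) and 372 against 147 CPM (epithelial). TCF21, a factor of lung fibroblasts, was lower, at 94.6 against 525 CPM and 101 against 354 CPM. NR2F2, known from vascular and mesenchymal cells, was at 828 against 686 CPM (CD45-negative) and 840 against 558 CPM (epithelial), within 2-fold.

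Signalling lists differed in how many genes were lower. Of the WNT list 10 of 13 tested genes in the CD45-negative library and 9 of 13 in the epithelial library were at least 2-fold lower, among them the secreted inhibitor WIF1 at 55.1 CPM in ADIPOQ-expressing cells against 1471 CPM (CD45-negative). The 1 higher gene in each was the transcription factor TCF7, at 150 against 42.5 CPM (CD45-negative) and 97.9 against 21.7 CPM (epithelial). Against the smooth muscle gate 5 of 8 tested WNT genes (CD45-negative) and 5 of 9 (epithelial) were lower and none higher. FGFR3 was at 34.4 against 905 CPM (CD45-negative) and 60.5 against 1238 CPM (epithelial). Of the BMP list 6 of 11 tested genes were lower (CD45-negative) and 4 of 10 (epithelial), and none higher. BMP4 was at 34.4 against 703 CPM and at 39.2 against 330 CPM. Against the smooth muscle gate 2 of 8 tested BMP genes were higher and 3 lower (CD45-negative), and 1 of 9 was higher and 2 were lower (epithelial). TGFB1 was higher, at 251 against 102 CPM (CD45-negative) and 233 against 86.7 CPM (epithelial), whereas TGFB3 was lower, at 279 against 703 CPM and 237 against 701 CPM. Of the insulin-like growth factor list 3 of 6 tested genes were lower (CD45-negative) and 3 of 7 (epithelial), and 1 was higher in each, IGFBP7. IGFBP5 and IGFBP4 were among the lower, with IGFBP5 at 70.5 against 1381 CPM (CD45-negative) and 126 against 1545 CPM (epithelial). PGF, placental growth factor of the VEGF family, was higher, at 406 against 43.1 CPM and 344 against 25.4 CPM.

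**Figure D3:**
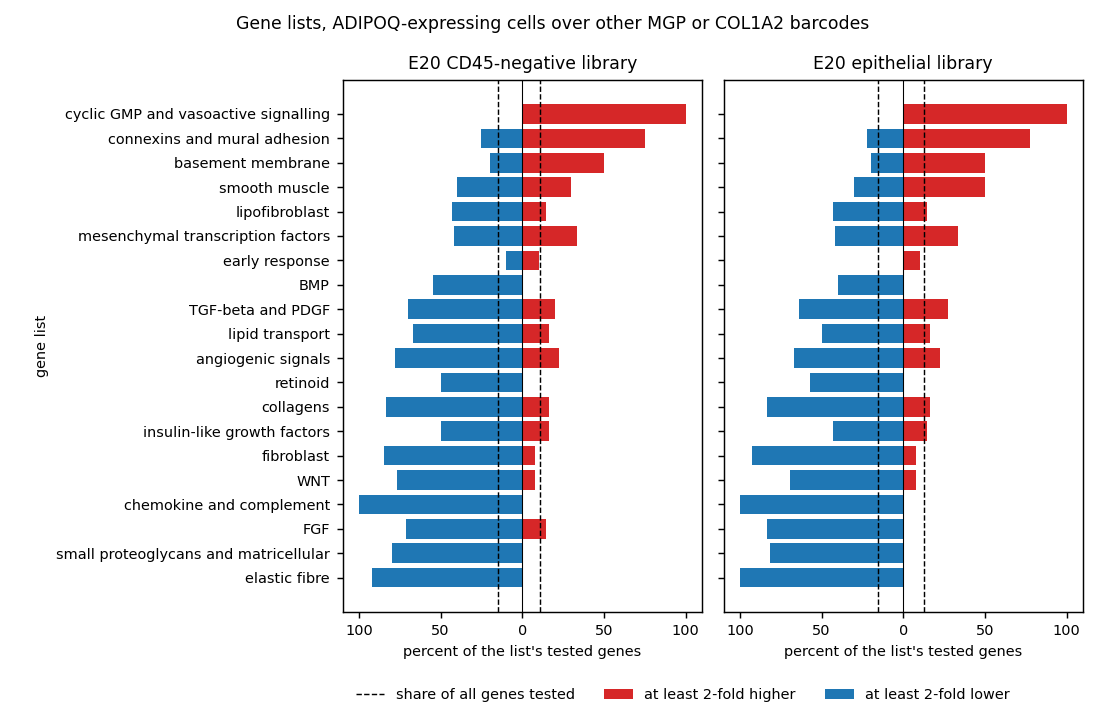
Percent of the tested genes of each list that were at least 2-fold higher (red, right) or lower (blue, left) in ADIPOQ-expressing cells over the other MGP or COL1A2 barcodes, for lists with at least 6 tested genes in both libraries, with dashed lines at the share of all tested genes. The vasoactive list stands at 100% higher and the chemokine and complement list at 100% lower in both libraries. Their genes mostly reached the minimum of 50 CPM through 1 group, and genes of the other lists could reach it that way too. The elastic fibre genes, for example, summed to 576 CPM in ADIPOQ-expressing cells and 8077 CPM in the others (CD45-negative). No excess over the dashed lines can therefore be read from any list.

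Of the 10 tested smooth muscle genes 3 were at least 2-fold higher and 4 lower in the CD45-negative library, and 5 higher and 3 lower in the epithelial library. The rule capped MYH11, smooth muscle myosin, so levels of genes that go with it are not independent of the choice of cells. The other MGP or COL1A2 barcodes of this count had no such cap, and 91 (CD45-negative) and 50 (epithelial) had over 2 MYH11 UMIs. In each library 9 of 11 tested genes were lower than in the smooth muscle gate, itself chosen on MYH11, and none was higher. The collagen-rich gate described further on shares the cap. Over that gate 5 of 9 were higher and 2 lower (CD45-negative), and 8 of 9 were higher and none lower (epithelial). TPM2, beta tropomyosin, was at 3818 CPM in ADIPOQ-expressing cells and 1569 CPM in the others (CD45-negative), and at 3709 and 997 CPM (epithelial). CALD1 and the intermediate filament DES were also at least 2-fold higher in both libraries. TAGLN was at 37.9 CPM in ADIPOQ-expressing cells against 1201 CPM (CD45-negative) and 158 against 633 CPM (epithelial). With only the ADIPOQ-expressing cells of the main clusters described further on, TAGLN was at 31.0 CPM (CD45-negative) and 30.5 CPM (epithelial). CNN1, calponin, was at 10.3 against 219 CPM and at 8.90 against 133 CPM.

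Barcodes with ADIPOQ and MYH11 together gave a second view of the limit. Among barcodes with at least 2 ADIPOQ UMIs, the 60 with 3 to 5 MYH11 UMIs in the CD45-negative library had POSTN at 13321, TAGLN at 20.9 and ACTG2 at 16.7 CPM. The 57 with no MYH11 UMI had POSTN at 9948, TAGLN at 8.83 and ACTG2 at 17.7 CPM. The 27 barcodes with over 10 MYH11 UMIs had POSTN at 689, TAGLN at 18444 and ACTG2 at 23535 CPM. In the CD45-negative library, the barcodes with 3 to 5, just outside the MYH11 limit, therefore had levels of these 3 genes like those with no MYH11 UMI. The 20 barcodes with 6 to 10 already differed, with POSTN at 7346, TAGLN at 4049 and ACTG2 at 3963 CPM. Within the limit, the 36 barcodes with 2 MYH11 UMIs had TAGLN at 99.8 and ACTG2 at 185 CPM. In the epithelial library the 35 barcodes with 3 to 5 MYH11 UMIs had POSTN at 9658 and TAGLN at 169 CPM, and the 21 with over 10 had POSTN at 2157 and TAGLN at 14278 CPM. Summed levels in the epithelial library differed within the limit too. Barcodes with 0, 1, 2 and 3 to 5 MYH11 UMIs had ACTG2 at 38.3, 129, 386 and 435 CPM. TAGLN was at 17.0, 262, 258 and 169 CPM in the same steps. The TAGLN values at 0, 1 and 2 MYH11 UMIs rest on 4, 51 and 34 UMIs. Only 12 of the 133 ADIPOQ-expressing cells had a TAGLN UMI and 1 held 31, so these sums do not describe the typical cell. ADIPOQ itself was at 714 CPM (CD45-negative) and 1011 CPM (epithelial) in the barcodes with over 10.

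**Figure D4:**
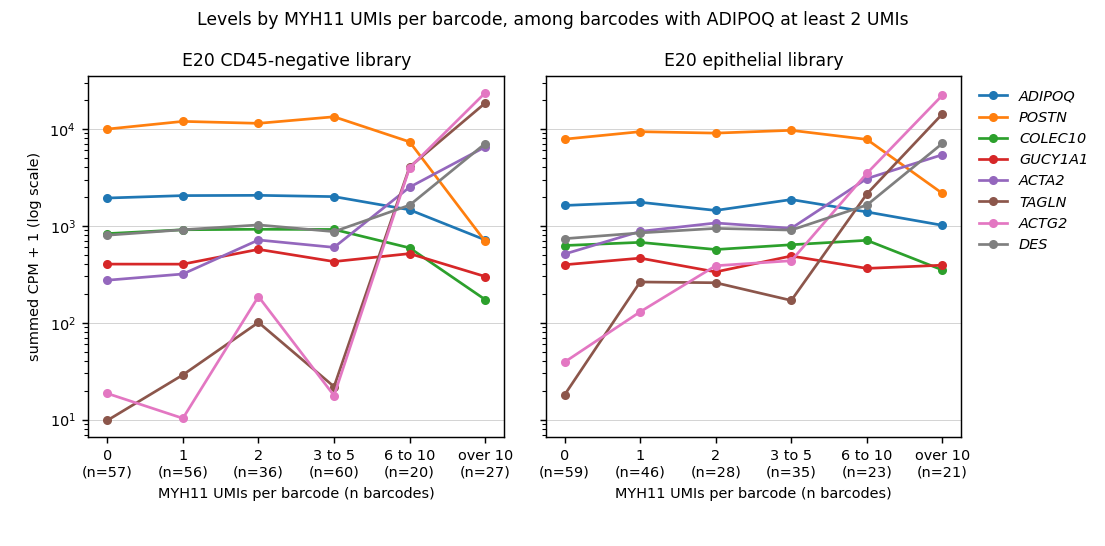
Summed CPM plus 1 (log axis) of 8 genes against the MYH11 UMIs of a barcode, among barcodes with at least 2 ADIPOQ UMIs that met the other parts of the rule, in the CD45-negative library (left) and the epithelial library (right), with the number of barcodes under each step. ACTA2, TAGLN, ACTG2 and DES are highest and POSTN lowest in the barcodes with over 10 MYH11 UMIs in both libraries.

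The smooth muscle gate, barcodes with at least 3 MYH11 UMIs and no EPCAM or KDR, thus overlapped in kind with the ADIPOQ-expressing cells: 60.0% of its 185 barcodes in the CD45-negative library and 66.1% of its 121 in the epithelial library had at least 2 ADIPOQ UMIs. Against that gate 125 of 3354 genes were at least 2-fold higher in ADIPOQ-expressing cells (3.73%) and 293 lower (8.74%) in the CD45-negative library, 12.5% in all. Of 3148 genes in the epithelial library 105 were higher (3.34%) and 224 lower (7.12%), 10.5% in all. Against the gate barcodes with at most 1 ADIPOQ UMI, an alternative added after the data were seen, the counts were 440 higher and 545 lower (CD45-negative) and 442 higher and 522 lower (epithelial).

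Those 74 and 41 MYH11 barcodes with at most 1 ADIPOQ UMI shared little of the profile. POSTN was at 11034 CPM in ADIPOQ-expressing cells, 7415 CPM in barcodes with ADIPOQ and MYH11, and 339 CPM in barcodes with MYH11 but at most 1 ADIPOQ UMI (CD45-negative). In the epithelial library the same 3 groups had POSTN at 8639, 6565 and 956 CPM. GUCY1A2 was at 561, 448 and 32.4 CPM (CD45-negative) and at 440, 418 and 23.5 CPM (epithelial) in that order of groups. COL3A1 was at 563, 416 and 7217 CPM (CD45-negative) and at 1214, 1306 and 11085 CPM (epithelial), low in both groups with ADIPOQ. The median mitochondrial share was 8.13, 8.06 and 4.21% (CD45-negative) and 12.8, 12.5 and 8.38% (epithelial) in the same 3 groups, and its part in these levels was not tested.

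Against the collagen-rich gate, barcodes with at least 5 COL1A2 UMIs, no ADIPOQ UMI and the same limits on MYH11, haemoglobin, EPCAM and KDR, 438 of 3530 genes were higher (12.4%) and 555 lower (15.7%) in the CD45-negative library, 28.1% in all. Of 3298 genes in the epithelial library 444 were higher (13.5%) and 542 lower (16.4%), 29.9% in all. MGP was at 1122 CPM in ADIPOQ-expressing cells and 41425 CPM in this gate (CD45-negative), and POSTN at 11034 and 365 CPM. All 347 barcodes of this gate (CD45-negative) and all 444 (epithelial) were also among the other MGP or COL1A2 barcodes, so it is not a separate group.

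**Figure D5:**
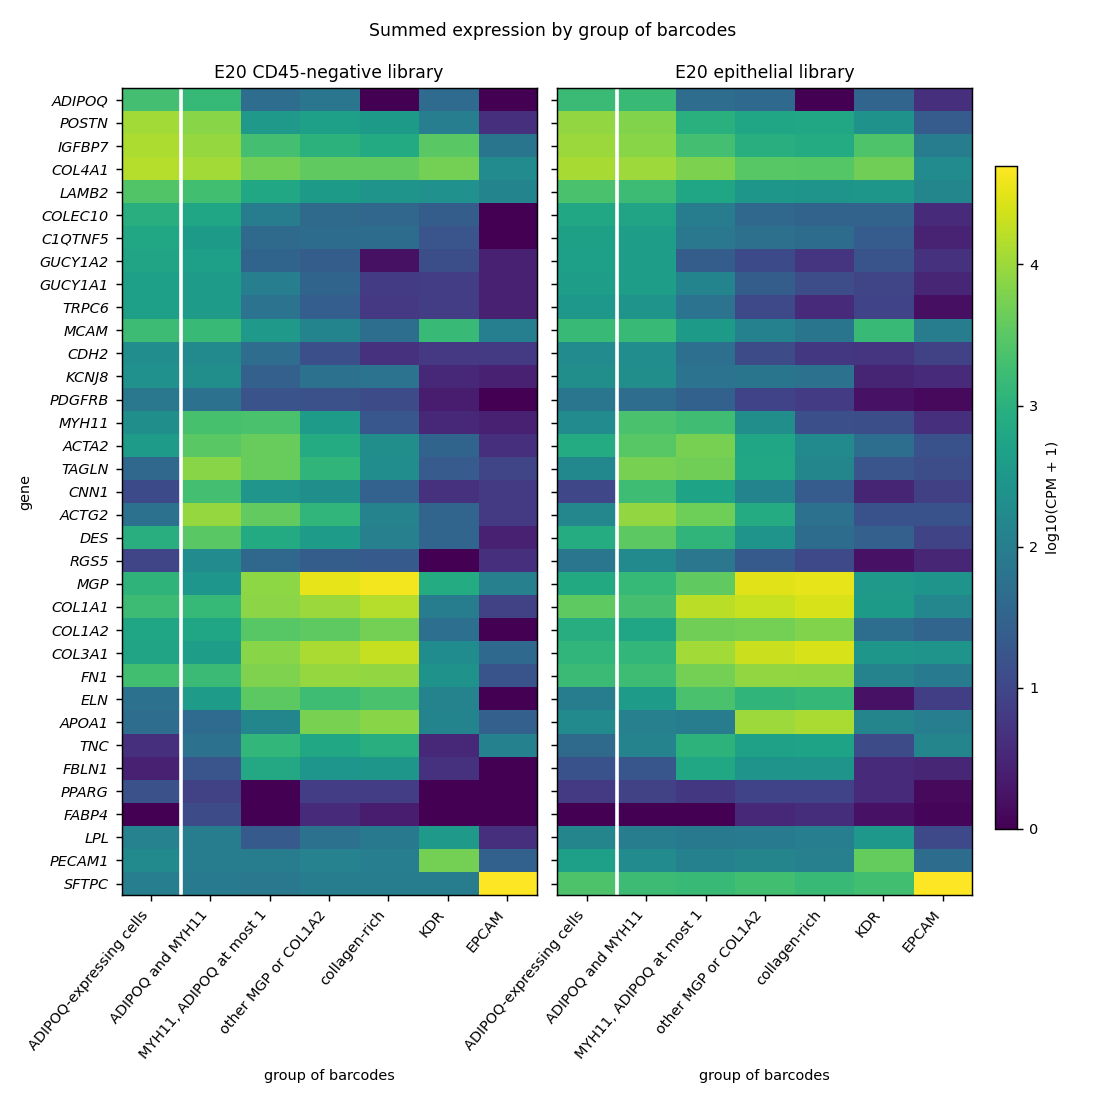
Summed expression, log10 of CPM plus 1 (colour), of 35 genes (rows) in 7 groups of barcodes (columns, ADIPOQ-expressing cells leftmost) of the CD45-negative library (left) and the epithelial library (right). Barcodes with ADIPOQ and MYH11 share POSTN, IGFBP7, COL4A1 and GUCY1A2 with the ADIPOQ-expressing cells, and MGP, COL3A1 and APOA1 are highest in the collagen-rich gate and next highest in the other MGP or COL1A2 barcodes. Columns can overlap, and the collagen-rich gate lies wholly within the other MGP or COL1A2 barcodes.

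When each library was clustered on its own, without the genes of the rule, most ADIPOQ-expressing cells fell together. In the CD45-negative library 142 of 149 (95.3%) were in 1 cluster of 238 barcodes, which also held 75 of the 111 barcodes with ADIPOQ and MYH11. It was led by POSTN, GUCY1A2 and SPERT, and 99.2% of its barcodes had an ADIPOQ UMI. The 7 cells elsewhere had MGP at 14252 CPM and POSTN at 1782 CPM, against 328 and 11593 CPM in the 142. Of the 472 MGP UMIs of the 7 cells, 1 cell held 357. In the epithelial library 106 of 133 (79.7%) were in 1 cluster of 180 barcodes, of which 96.1% had an ADIPOQ UMI. It was led by ADIPOQ, SPERT, POSTN, TRPC6 and SELENOP2. Leading genes are a description, since they come from the cells that were clustered.

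The 27 cells outside that cluster in the epithelial library were a mixed set. They had a median of 6276 UMIs against 3830.5 in the cells inside it, with ADIPOQ at 799 CPM against 1972 CPM and POSTN at 3680 against 10751 CPM. Endothelial CDH5 was at 859 CPM in the 27 against 25.4 CPM, the thrombocyte gene ITGA2B at 596 against 71.1 CPM, and COL1A1 at 7401 against 1698 CPM. TAGLN was at 459 CPM in the 27, from 77 UMIs, against 30.5 CPM inside the cluster, from 12, and APOA1 at 429 against 68.5 CPM. Single cells held much of these sums: 704 of the 1241 COL1A1 UMIs of the 27, 31 of the 77 TAGLN UMIs and 38 of the 72 APOA1 UMIs. Of the 27, 13 lay in a cluster of 51 barcodes with a median of 6998 UMIs, and 4 in a cluster led by CSTA, GP9, HPSE and ITGA2B. A score for doublets, barcodes that hold 2 cells, marked 14 of the 133 cells (10.5%) against 3.82% of the other barcodes in the epithelial library, and 6 of the 149 (4.03%) against 2.68% in the CD45-negative library. The comparisons were also run with the doublets removed, and with only the cells of the main clusters. Neither setting is among those given further on for moving the counts of higher or lower genes. The part of these cells and of doublets in the results was not examined beyond these reruns.

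Between libraries the median gene differed by 0.25 on the log2 scale in ADIPOQ-expressing cells, in either direction, against 0.18 in the other MGP or COL1A2 barcodes. The ADIPOQ-expressing cells held 581208 UMIs (CD45-negative) and 561608 (epithelial), and the others 3109224 and 3228792. The part of this unlike depth in the 2 distances was not tested. Of 3168 tested genes 94.6% lay within 2-fold, 33 were at least 2-fold higher in the CD45-negative library and 139 lower, 5.43% called in all. CSTA, IFI6, RAC2, RGS18 and PLEK had no UMI in the CD45-negative cells and between 58.8 and 121 CPM in the epithelial cells. The 12 listed thrombocyte genes summed to 210 CPM in ADIPOQ-expressing cells and 498 CPM in the others (CD45-negative), and to 1059 and 619 CPM (epithelial). The listed endothelial genes summed to 284 and 225 CPM (CD45-negative) and to 1077 and 318 CPM (epithelial). SFTPC, the surfactant protein of epithelium, was at 103 CPM in ADIPOQ-expressing cells and 96.5 CPM in the others (CD45-negative), and at 2457 and 1905 CPM (epithelial), where the EPCAM barcodes had 79051 CPM. The listed epithelial genes summed to 115 and 133 CPM (CD45-negative) and to 2893 and 2328 CPM (epithelial) in ADIPOQ-expressing cells and the others. In the epithelial library RGS18 had 34 UMIs in the 27 cells outside the main cluster and 4 in the 106 inside it. PLEK had 25 and 8, ITGA2B 100 and 28, and CDH5 144 and 10, in the same order. SFTPC went the other way, at 1837 CPM in the 27 and 2721 CPM in the 106. The part of these markers in the differences between libraries was not tested.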

How the data were processed

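Single-cell UMI counts per gene and barcode were used as deposited by the authors. They are raw counts, made with cellranger 4.0.0 for both E20 libraries and cellranger-arc 2.0.0 for E13 per the file headers, and the submitters' processing notes name galGal6, Seurat and Signac without a role. The strand setting and the barcode filter are not given in the sources used here. The series has 4 samples in 4 groups, with 1 library each. The cells of interest and all gene lists were chosen with earlier results of these data known. UMIs were summed per group and divided by the group total. A sum of 0 was taken as under 3 UMIs, a floor of 5.16 CPM (CD45-negative) and 5.34 CPM (epithelial). Called means at least 2-fold past the median ratio, which was 0.06 (CD45-negative) and 0.11 (epithelial) on the log2 scale. Named genes were the 15 highest and 10 lowest symbols in the CD45-negative library with at least 50 CPM in the higher group, plus listed genes past the same minimum, and genes below it are named where the text gives their UMIs. Mitochondrial, ribosomal protein and haemoglobin genes were left out. Clustering used scanpy 1.11.5, and the code was tested on simulated data.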

Additional observations from a re-analysis of the deposited data

Results flagged for a closer look

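The ratio of ADIPOQ-expressing cells over the other MGP or COL1A2 barcodes had opposite signs in the CD45-negative and the epithelial library for 4 listed genes, with intervals that cover counting error only. No difference between the libraries was tested. RGS5 had a relative log2 ratio of -1.39 in the CD45-negative library, from 5 UMIs, and 1.57 in the epithelial library, from 38 UMIs. In the epithelial library 11 of 133 ADIPOQ-expressing cells had an RGS5 UMI, and the highest had 20. ACTA2 had ratios of -1.06 (CD45-negative) and 0.28 (epithelial). It ran up to 18 UMIs per ADIPOQ-expressing cell in the CD45-negative library and up to 41 in the epithelial library. In the epithelial library the 106 cells of the main cluster held 216 ACTA2 UMIs (548 CPM). The 27 cells outside that cluster held 215 (1282 CPM). In the CD45-negative library the cells of the main cluster were at 385 CPM. The part of the 27 cells in the opposite signs was not tested. The heat shock genes HSP90AA1 (-0.13 and 0.19) and HSPA2 (-0.15 and 0.26) differed by smaller amounts, within 2-fold in both libraries. In the E13 nuclei, which no comparison used, 34 ADIPOQ UMIs were found in 32 of 8705 barcodes, 2 of them with at least 2 UMIs.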

How the results depend on the processing

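No paired analysis was possible because each group is 1 library. Of 850 named gene values over the settings tried, 697 moved by less than their counting interval, 152 moved further and 1 changed sign. That was INKA2 in the epithelial library, at -1.38 when ADIPOQ-expressing cells also needed 5 UMIs of MGP or COL1A2. Dropping the MYH11 limit gave 256 cells (CD45-negative) and 212 (epithelial), and at most 10% mitochondrial UMIs left 29 in the epithelial library.

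Against the other MGP or COL1A2 barcodes, a minimum of 10 CPM gave 867 higher and 1249 lower genes (CD45-negative) and 934 and 1186 (epithelial), and no minimum 1254 and 1462, and 1234 and 1405. Needing MGP or COL1A2 in the ADIPOQ-expressing cells gave 614 higher (CD45-negative).

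Against the smooth muscle gate, higher and lower counts (CD45-negative, then epithelial) were 512 and 924, and 564 and 800, at 10 CPM. With no minimum they were 800 and 1168, and 704 and 1100. Thinned to 1000 UMIs they were 313 and 456, and 411 and 496. With no MYH11 limit they were 30 and 159, and 33 and 135. With the gate at no more than 1 ADIPOQ UMI they were 440 and 545, and 442 and 522. ADIPOQ of at least 1 UMI gave 80 higher (CD45-negative), and at most 10% mitochondrial UMIs 441 and 613 (epithelial).

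Against the collagen-rich gate they were 995 and 1329, and 1065 and 1250, at 10 CPM, and 1208 and 1468, and 1342 and 1452, with no minimum. Lower minimums test more genes, and the causes of the other changes were not tested.

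Shares moved with depth. COL3A1 was in 30.1% of ADIPOQ-expressing cells and 97.5% of the others at 2000 UMIs and in 41.6% and 98.4% unthinned (CD45-negative), and in 46.3% and 97.6%, and 64.7% and 98.2%, in the epithelial library. POSTN was in 14.9% and 20.7% of the others (CD45-negative) and in 27.4% and 37.8% (epithelial) at the same depths, and in 97.7% of ADIPOQ-expressing cells unthinned (epithelial).

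Single libraries without replicates, different sorts and a rule made from the same counts limit all of these values.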

Other observations

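Genes of the lectin route of complement, picked here after their values were seen, were high in ADIPOQ-expressing cells. COLEC10, a collectin known from liver, was at 881 CPM in ADIPOQ-expressing cells and 41.2 CPM in the other MGP or COL1A2 barcodes (CD45-negative), and at 629 and 35.6 CPM (epithelial). It had a UMI in 133 of 149 ADIPOQ-expressing cells in the CD45-negative library and in 106 of 133 in the epithelial library. The same counts were 102 of 185 and 75 of 121 in the smooth muscle gate, and 66 of 709 and 72 of 654 in the others. COLEC11, which pairs with COLEC10 in mammals, was at 256 against 26.4 CPM (CD45-negative) and 198 against 19.2 CPM (epithelial). MASP1, a serine protease that binds collectins, was at 84.3 against 3.22 CPM (CD45-negative) and 62.3 against 2.48 CPM (epithelial). The scavenger receptor COLEC12 ran the other way, at 68.8 against 592 CPM (CD45-negative) and 80.1 against 431 CPM (epithelial).

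The 2 selenoprotein P genes also ran in opposite directions. SELENOP2 was at 401 CPM in ADIPOQ-expressing cells and 7.08 CPM in the others of the CD45-negative library, while SELENOP1 was at 8.60 and 57.9 CPM. In the epithelial library SELENOP1 was at 28.5 CPM in ADIPOQ-expressing cells and 92.6 CPM in the others. GFRA1, a receptor for the neurotrophic factor GDNF, was at 188 against 8.04 CPM (CD45-negative) and 153 against 4.34 CPM (epithelial).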
